A study of Mus musculus with 12 samples.

Results

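The genes described here are 8 mouse genes known for expression in testis. Each is a paralog, or relative by descent, of a gene used by nearly every cell. They are Rpl39l, Cyct, Slc25a31, Pgk2, Ldhc, Pdha2, Taf7l and D1Pas1. Each was found by its symbol on a spotted oligonucleotide array with 18322 named genes, and all 8 of 8 were present. The brightest probe stood for each gene. Values are log2 ratios of a cell line over a common reference, so a ratio of 0 is the reference level. The 8 genes were chosen with their ratios in these lines already known, so their values and standard errors are a description and carry no p-value.

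The study lowered Kdm5c, an X-linked demethylase of histone H3 lysine 4, in IB10 (E14) mouse embryonic stem cells. There were 3 lines: shKdm5c#1 and shKdm5c#2, which carry short hairpin RNAs against Kdm5c in the lentiviral vector pLKO-puro, and control-sh, which carries a non-targeting hairpin in the same kind of vector. All lines were selected in puromycin and pooled from surviving colonies, and all grew on gelatin in serum with LIF, the cytokine that holds these cells undifferentiated. Each line gave 4 cultures, A to D, and each culture shared an array with reference RNA of untreated IB10 cells, which carry no vector. The dyes were swapped: Cy3 marked the sample for A and C, and Cy5 for B and D. Each hairpin thus stands for 1 pooled line. The p-values measure only the spread between cultures within a line, estimated over all 3 lines together. In bulk RNA, fewer cells expressing a gene and less RNA per cell cannot be told apart.

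Spermatogenesis is known for such paralogs. In meiosis the X chromosome of spermatocytes is silenced, and autosomal copies of X-linked genes, several of them retrogenes made from a spliced mRNA, supply the protein in its place. Sperm also use their own forms of enzymes of glycolysis and respiration. In embryonic stem cells many germline promoters are held down by DNA methylation and by a Polycomb complex, PRC1.6, in which the partners MGA and MAX bind the E-box CACGTG and E2F6 binds E2F motifs. Loss of Kdm5c has been linked to expression of germline genes in mouse brain. Rpl39l is known to be expressed in embryonic stem cells as well as in testis.

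In the RefSeq annotation of GRCm38.p6, 5 of the 8 genes have a somatic paralog on the X chromosome, namely Rpl39l, Slc25a31, Pgk2, Pdha2 and D1Pas1. Taf7l is the 1 member that is itself X-linked. The genes lie at chr16:10170197-10174911 (Rpl39l), chr2:76353942-76360453 (Cyct), chr3:40708871-40726094 (Slc25a31), chr17:40207018-40208609 (Pgk2), chr7:46861263-46878147 (Ldhc), chr3:141210004-141212355 (Pdha2), chrX:134460116-134476505 (Taf7l) and chr1:186967416-186970627 (D1Pas1). Ldhc begins 5635 bases after the end of its paralog Ldha on chromosome 7. The genes of Pgk2, Pdha2 and D1Pas1 span 1592, 2352 and 3212 bases, against 16600, 16212 and 13493 bases for Pgk1, Pdha1 and Ddx3x. Short gene spans of this kind are known of retrogenes, which lack the introns of their source. The other members were not short beside their paralogs. Rpl39l spans 4715 bases against 2705 for Rpl39, and Cyct 6512 against 4007 for Cycs. Slc25a31 spans 17224 against 3895 and 3212 for Slc25a4 and Slc25a5, and Taf7l 16390 against 3714 for Taf7. Ldhc spans 16885, between 13354 for Ldha and 17709 for Ldhb.

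The 250 bases before the start of transcription are shown for 4 genes: Rpl39l, which differed most between the hairpin lines, Slc25a31 and Taf7l, whose windows are the 2 of 8 that hold the E-box CACGTG, and Pgk2, whose ratios stayed near 0 and whose window has the fewest CpG sites. Capitals mark the E-box, which reads the same on both strands. The windows are the RefSeq table's for GRCm38.p6, at chr16:10169978-10170227 on the plus strand (Rpl39l), chr3:40708621-40708870 on the plus strand (Slc25a31), chrX:134476491-134476740 on the minus strand (Taf7l) and chr17:40208610-40208859 on the minus strand (Pgk2).
Rpl39l: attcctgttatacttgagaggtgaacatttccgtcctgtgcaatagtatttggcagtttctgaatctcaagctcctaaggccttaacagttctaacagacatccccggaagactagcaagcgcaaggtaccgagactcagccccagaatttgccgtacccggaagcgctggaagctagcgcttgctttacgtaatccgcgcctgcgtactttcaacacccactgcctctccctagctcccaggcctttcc
Slc25a31: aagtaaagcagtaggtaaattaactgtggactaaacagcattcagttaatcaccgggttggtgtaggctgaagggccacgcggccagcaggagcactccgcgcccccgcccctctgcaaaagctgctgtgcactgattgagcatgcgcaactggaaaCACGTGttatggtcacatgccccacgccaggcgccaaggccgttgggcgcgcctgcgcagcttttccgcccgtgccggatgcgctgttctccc
Taf7l: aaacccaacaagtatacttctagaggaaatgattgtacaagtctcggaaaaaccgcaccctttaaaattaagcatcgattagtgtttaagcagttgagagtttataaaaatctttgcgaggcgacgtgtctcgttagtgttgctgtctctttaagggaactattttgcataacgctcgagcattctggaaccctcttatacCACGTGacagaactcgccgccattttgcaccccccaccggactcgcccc
Pgk2: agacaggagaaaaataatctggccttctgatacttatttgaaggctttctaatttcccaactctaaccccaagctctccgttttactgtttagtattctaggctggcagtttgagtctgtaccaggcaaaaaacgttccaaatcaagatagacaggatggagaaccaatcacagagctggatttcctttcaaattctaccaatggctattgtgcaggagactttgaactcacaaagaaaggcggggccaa

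The E-box stood in 6.02 percent of 32851 windows of the same length in the table. Neither the E2F motif GGCGGGA nor the cAMP response element TGACGTCA, each searched on both strands, stood in a window of the 8 genes, and 9.75 and 1.55 percent of all windows held them. Among 10 somatic paralogs with a window, Rpl39 held the E2F motif, Cycs and Ldha the cAMP response element, and Ldha the E-box as well. CpG sites stood at 0.27 to 1.13 of their expected number in the 8 windows (median 0.63), at 0.56 to 1.18 in those of the paralogs (median 0.71), and at a median of 0.37 in all windows. The window of Taf7l had 14 CpG sites and passed 98.6 percent of all windows in this ratio, while that of Pgk2 had 3 and passed 39.5 percent. The starts used for the Rpl39l and Taf7l windows lie inside the gene spans given above, so these windows overlap those spans at their ends. The motif matches describe the letters in the windows and say nothing of what binds there.

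**Figure D1:**
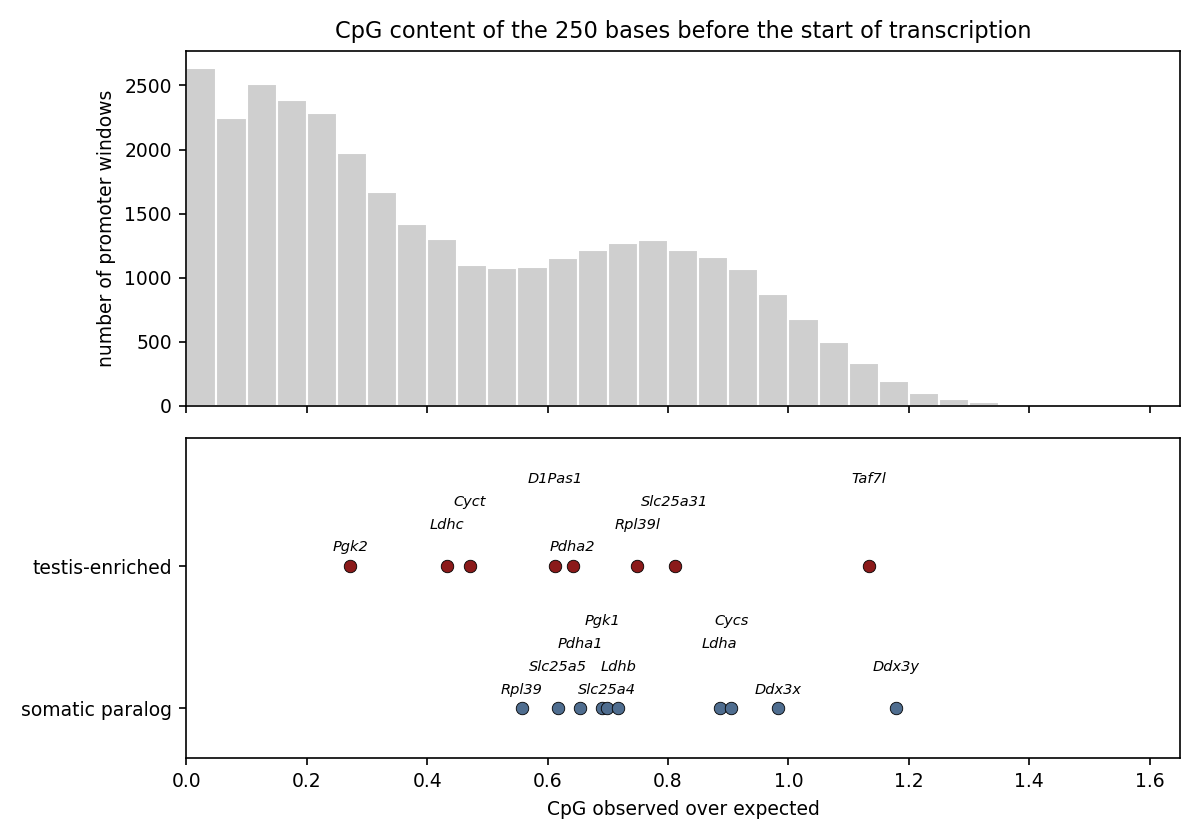
The top panel counts all RefSeq promoter windows by the ratio of observed to expected CpG sites (x axis) in the 250 bases before the start of transcription. The lower panel places the 8 testis-enriched genes above 10 somatic paralogs on the same axis; the 8 genes run from 0.27 for Pgk2 to 1.13 for Taf7l.

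Kdm5c itself was checked first. Its log2 ratio over IB10 was -0.62, -0.42, -0.81 and -0.63 in cultures A to D of shKdm5c#1, -0.69, -0.62, -0.75 and -0.65 in shKdm5c#2, and -0.01, 0.09, -0.01 and 0.00 in control-sh. Every culture of both hairpin lines lay below every control culture, while the hairpin lines overlapped each other. Kdm5c fell by 0.64 and 0.70 on the log2 scale against control-sh (limma adjusted p = 1.66e-07 and 2.98e-08). Its 3 probes differed in size: MMAB021192 gave -0.98 and -0.99, and MMAB032660 gave -0.10 and -0.04, with no call (p adjusted over all probes = 0.143 and 0.689). On each array 84.4 to 96.4 percent of gene spots passed the local background in the sample channel, where a spot passes if its median signal exceeds the background median by 2 background SDs. The number of arrays limits the precision, and the median standard error of a difference between lines was 0.04 log2. The highest Cy5 signal was the same on all 4 arrays of a line and differed between lines (65310, 65312 and 65314 in shKdm5c#1, shKdm5c#2 and control-sh). No label records a batch, and the part of such a difference in the results was not tested.

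Most of the 8 probes were dim. By the same rule 6 of 8 passed the background in the sample channel of all 12 arrays, Cyct in 11 and Ldhc in 10. Median sample signals ran from 797 to 3240 for Rpl39l, 386 to 786 for D1Pas1 and 116 to 240 for Cyct, over local backgrounds of 33 to 40. The other 5 probes stayed within 57 and 117, with backgrounds of 32 to 38. Passing this rule does not show expression: of 10 spermatid markers, genes such as Prm1 and Tnp1 that package sperm DNA, 9 passed on all 12 arrays. Differences of dim probes are also pulled toward 0 by the offset of 50 added to every signal before the logarithm.

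Rpl39l, a copy of the ribosomal protein gene Rpl39 that is built into ribosomes of spermatids, differed most. Its sample signal was 3103, 2365, 3239.5 and 3094 in cultures A to D of shKdm5c#1, 891, 842, 796.5 and 1068.5 in shKdm5c#2, and 2240.5, 2373.5, 1731 and 3007.5 in control-sh. Its log2 ratio over IB10 was 0.43, 0.31, 0.49 and 0.39 in shKdm5c#1, -1.12, -1.07, -1.17 and -1.21 in shKdm5c#2, and 0.26, 0.12, 0.16 and 0.13 in control-sh. The 3 lines did not overlap: every culture of shKdm5c#1 lay above every control culture, and every culture of shKdm5c#2 lay far below. Against control-sh the difference was 0.24 ± 0.04 log2 in shKdm5c#1 and -1.31 ± 0.04 in shKdm5c#2 (standard errors, n = 4 cultures per line), or 118 and 40.4 percent of the control level. The hairpin lines thus differed from each other 2.92-fold (1.55 ± 0.04 log2), while their Kdm5c ratios by the brightest probe differed by 0.06 log2 (adjusted p = 0.546).

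A dimmer probe of Rpl39l, MMAB003233, had signals of 63.5 to 199 and gave differences of 0.18 and -0.48 with shKdm5c#1 and shKdm5c#2 against control-sh. Both probes ordered the lines alike, with shKdm5c#1 highest and shKdm5c#2 lowest. The X-linked source gene Rpl39 gave -0.04 ± 0.08 and 0.00 ± 0.08 (adjusted p = 0.83 and 0.986), so neither difference passed the test. The Rpl39 ratio depended on the dye by 0.51 log2, with shKdm5c#1 at -0.19 and -0.22 in its Cy3 cultures and at -0.07 and 0.35 in its Cy5 cultures.

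**Figure D2:**
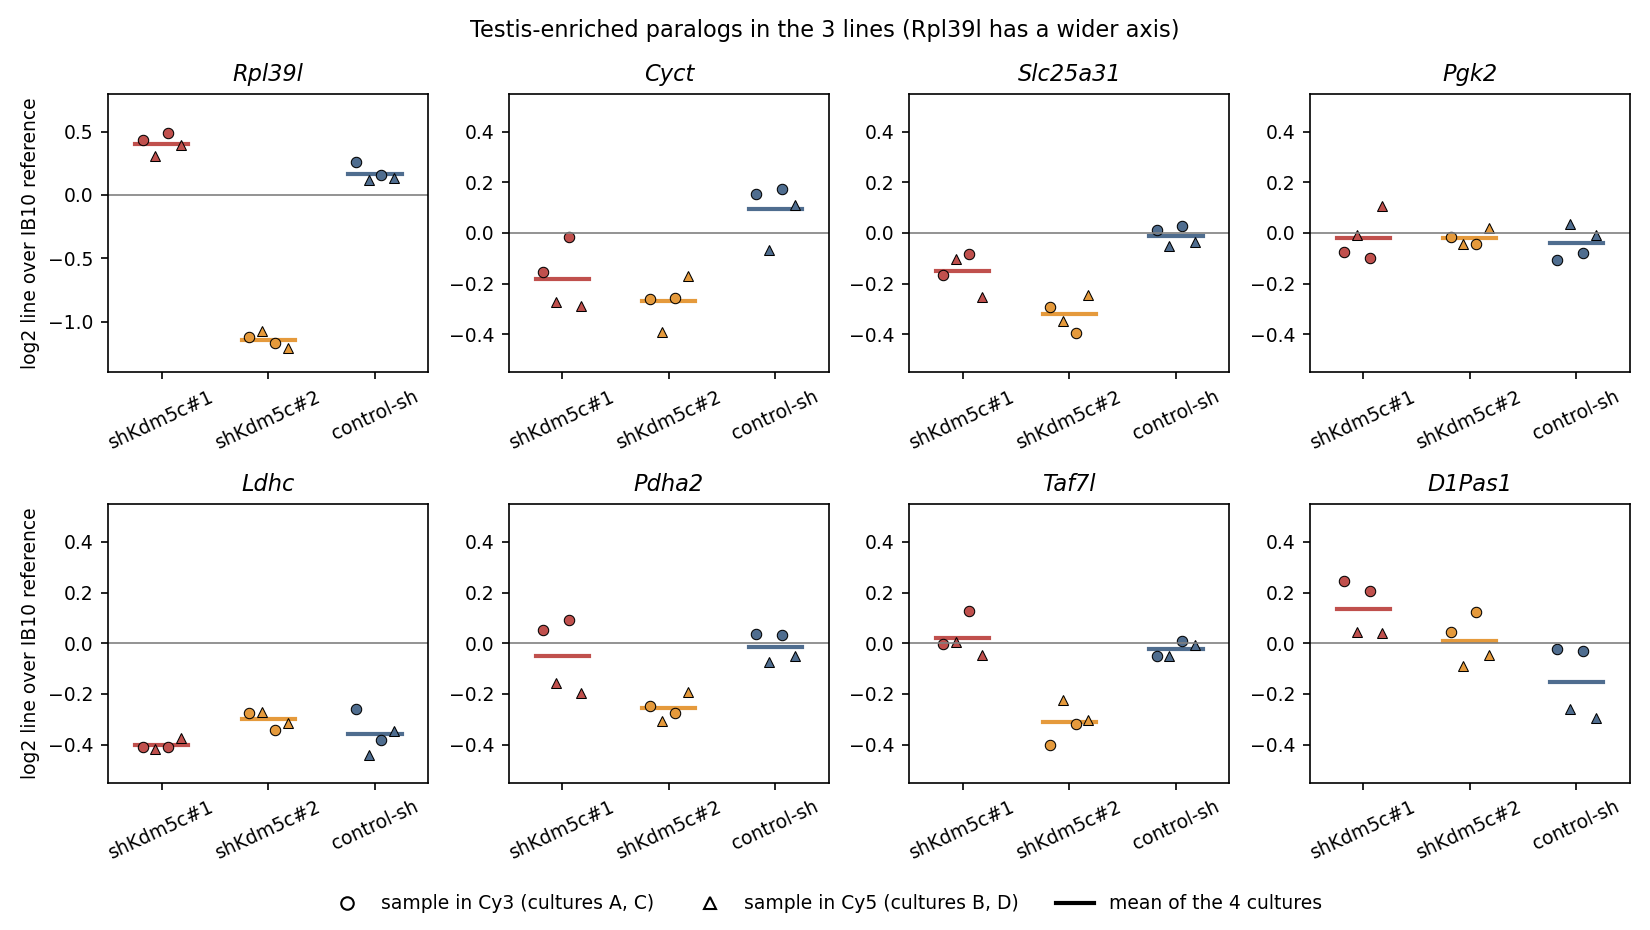
Each panel shows the log2 ratio of 1 gene over the IB10 reference (y axis) in the 4 cultures of shKdm5c#1, shKdm5c#2 and control-sh (x axis), as measured; circles are Cy3 samples, triangles Cy5 samples and bars line means. Rpl39l, on a wider axis, lies near -1.1 in shKdm5c#2 and above 0 in the other lines, and Cyct, Slc25a31, Pdha2 and Taf7l lie below the control cultures in shKdm5c#2.

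3 genes of mitochondrial respiration came next. Cyct encodes the cytochrome c of male germ cells, which carries electrons in the respiratory chain. It stood at -0.16, -0.27, -0.01 and -0.29 over IB10 in cultures A to D of shKdm5c#1, at -0.26, -0.39, -0.26 and -0.17 in shKdm5c#2, and at 0.15, -0.07, 0.17 and 0.11 in control-sh. Every culture of shKdm5c#2 lay below the control cultures, and shKdm5c#1 overlapped them until the dye term was taken out. The differences from control-sh were -0.28 ± 0.05 and -0.36 ± 0.05. Its somatic paralog Cycs was not analysed here, since no array symbol matched it.

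Slc25a31 encodes the ADP/ATP carrier of sperm and the male germ line. Its ratios were -0.17, -0.10, -0.08 and -0.25 in shKdm5c#1, -0.29, -0.35, -0.39 and -0.24 in shKdm5c#2, and 0.01, -0.05, 0.03 and -0.04 in control-sh. Both hairpin lines lay wholly below control-sh, by -0.14 ± 0.04 and -0.31 ± 0.04, while the 2 hairpin lines overlapped each other. The somatic carriers Slc25a4 and Slc25a5, the second of them X-linked, gave -0.08 and 0.04 in shKdm5c#1 (adjusted p = 0.275 and 0.602) and -0.12 and -0.05 in shKdm5c#2 (adjusted p = 0.0828 and 0.473). Averaged over its probes, Slc25a4 passed the threshold in shKdm5c#2 (-0.11, adjusted p = 0.0118).

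Pdha2 encodes the E1 alpha subunit of pyruvate dehydrogenase in male germ cells, the enzyme that feeds pyruvate into the citric acid cycle. It stood at 0.05, -0.16, 0.09 and -0.19 in shKdm5c#1, -0.25, -0.31, -0.28 and -0.19 in shKdm5c#2, and 0.04, -0.07, 0.03 and -0.05 in control-sh. The line shKdm5c#2 lay wholly below control-sh (-0.24 ± 0.05) and shKdm5c#1 overlapped it (-0.04 ± 0.05). In shKdm5c#1 and control-sh the ratios followed the dye, above 0 in Cy3 and below 0 in Cy5.

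The X-linked Pdha1, the form of this subunit in other cells, moved in the other hairpin line. Its ratios over IB10 were 0.36, 0.23, 0.30 and 0.21 in shKdm5c#1, -0.12, -0.21, -0.08 and -0.04 in shKdm5c#2, and -0.12, -0.20, -0.09 and -0.26 in control-sh. Pdha1 rose to 136 percent of control in shKdm5c#1 (0.45 ± 0.04 log2, limma adjusted p = 6.34e-07), with every culture above the controls, and gave 0.06 ± 0.04 in shKdm5c#2 (adjusted p = 0.338). The hairpin lines differed by 0.39 ± 0.04 (adjusted p = 2.68e-06). A second probe, MMAB010049, gave 0.52 and 0.05 for the 2 lines. With median centring in place of loess the call in shKdm5c#1 was lost (0.50, adjusted p = 0.117).

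2 genes belong to sperm glycolysis. Pgk2 encodes the phosphoglycerate kinase of spermatids and sperm and is a classic retrogene. Its ratios ran from -0.10 to 0.11 in shKdm5c#1, from -0.04 to 0.02 in shKdm5c#2 and from -0.11 to 0.03 in control-sh. All 3 lines overlapped, and the differences from control-sh were 0.02 ± 0.04 in both hairpin lines. Its source Pgk1 gave 0.24 ± 0.10 and 0.09 ± 0.10 (adjusted p = 0.0975 and 0.620) and depended on the dye by 1.19 log2. Without culture A of shKdm5c#1, without culture D of shKdm5c#2 or without culture C of control-sh, Pgk1 passed the test in shKdm5c#1 (0.32, 0.24 and 0.32, adjusted p = 0.0381, 0.0386 and 0.0329), and so did the mean of its probes (0.28, adjusted p = 0.0426).

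Ldhc encodes the lactate dehydrogenase of sperm. It stood at -0.41, -0.42, -0.41 and -0.37 over IB10 in shKdm5c#1, -0.27, -0.27, -0.34 and -0.31 in shKdm5c#2, and -0.26, -0.44, -0.38 and -0.35 in control-sh. All 12 cultures thus lay below IB10, and those of both hairpin lines overlapped control-sh (-0.05 ± 0.04 and 0.06 ± 0.04). The cultures of shKdm5c#1 lay wholly below those of shKdm5c#2, by -0.10 ± 0.04. With an offset of 16 in place of 50 the ratios over IB10 were -0.60, -0.43 and -0.53 in shKdm5c#1, shKdm5c#2 and control-sh.

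Of the somatic lactate dehydrogenases, Ldhb rose in shKdm5c#2. Its ratios were -0.30, -0.21, -0.23 and -0.27 in shKdm5c#1, 0.03, 0.01, -0.03 and 0.01 in shKdm5c#2, and -0.16, -0.13, -0.22 and -0.24 in control-sh. The differences from control-sh were -0.06 ± 0.04 (adjusted p = 0.282) and 0.20 ± 0.04 (adjusted p = 0.000603), and the hairpin lines differed by -0.26 (adjusted p = 6.27e-05). The call in shKdm5c#2 was lost with median centring (0.21, adjusted p = 0.540) and in the Cy5 arrays alone (0.20, adjusted p = 0.0842). The brightest Ldha probe gave 0.07 and 0.11 (adjusted p = 0.734 and 0.569), reached a signal of 64933.5, and depended on the dye by 2.48 log2. A dimmer Ldha probe, MMAB011997, gave 0.29 and 0.42 with the 2 hairpins (limma p adjusted over all probes = 0.000192 and 2.49e-06).

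2 genes act in the nucleus or on RNA. Taf7l, a germ cell form of the TFIID subunit Taf7, takes part in starting transcription. Its ratios were 0.00, 0.01, 0.13 and -0.05 in shKdm5c#1, -0.40, -0.22, -0.32 and -0.30 in shKdm5c#2, and -0.05, -0.05, 0.01 and -0.01 in control-sh. The line shKdm5c#2 lay wholly below both others, at -0.29 ± 0.04 against control-sh, and shKdm5c#1 overlapped control-sh (0.04 ± 0.04). A dimmer probe, MMAB013883, gave 0.05 and -0.03 for shKdm5c#1 and shKdm5c#2, so the 2 probes of Taf7l disagreed on shKdm5c#2. Taf7 gave 0.00 in shKdm5c#1 (adjusted p = 0.960) and 0.11 ± 0.04 in shKdm5c#2, which passed the test by a narrow margin (adjusted p = 0.0431). That call was lost under most other settings, and its adjusted p ran up to 0.768, with median centring.

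D1Pas1 encodes a DEAD-box RNA helicase of male germ cells, an autosomal copy of the Ddx3 genes of the sex chromosomes. By its brightest probe it stood at 0.25, 0.04, 0.21 and 0.04 in shKdm5c#1, 0.04, -0.09, 0.12 and -0.05 in shKdm5c#2, and -0.02, -0.26, -0.03 and -0.29 in control-sh. The Cy3 cultures lay above the Cy5 cultures in each line. Against control-sh the differences were 0.29 ± 0.03 and 0.16 ± 0.03, and within Cy3 arrays they were 0.25 and 0.11, within Cy5 arrays 0.32 and 0.21.

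The second probe of D1Pas1, MMAB021358, gave a different size. Its ratios over IB10 were 1.60, 1.44, 1.42 and 1.48 in cultures A to D of shKdm5c#1, 0.36, 0.38, 0.41 and 0.20 in shKdm5c#2, and 0.03, -0.03, 0.01 and 0.02 in control-sh. The 3 lines did not overlap, and the differences from control-sh were 1.48 ± 0.04 and 0.33 ± 0.04. Its sample signal was 977.5, 639, 954 and 836 in shKdm5c#1, 315, 297.5, 333 and 357.5 in shKdm5c#2, and 251, 245.5, 210 and 332.5 in control-sh. Both probes put shKdm5c#1 above shKdm5c#2 and shKdm5c#2 above control-sh. Which probe reads D1Pas1 was not tested, since probe sequences were not used here and the Ddx3 family is closely related. Ddx3x had 4 probes that disagreed in sign: the brightest gave -0.21 and -0.30 (adjusted p = 0.0636 and 0.00827), while MMAB029507 gave 0.22 and 0.26, and the mean of the probes in shKdm5c#2 was -0.04 (adjusted p = 0.662). Ddx3y was not analysed here.

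**Figure D3:**
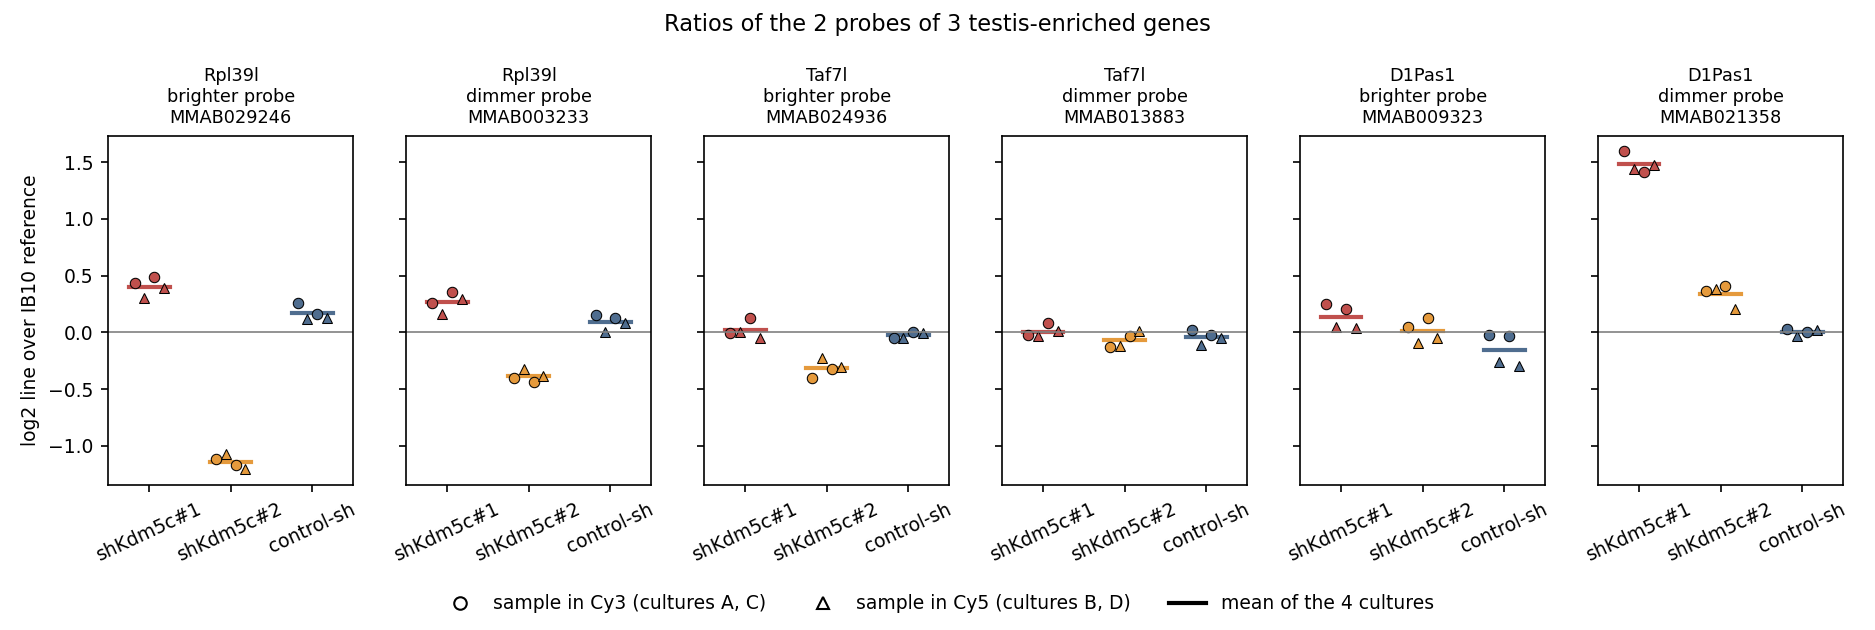
The log2 ratio over the IB10 reference (y axis) is shown for both probes of Rpl39l, Taf7l and D1Pas1 in shKdm5c#1, shKdm5c#2 and control-sh, with circles for Cy3, triangles for Cy5 and bars for line means. The probes of Rpl39l order the lines alike, only the brighter Taf7l probe is low in shKdm5c#2, and the dimmer D1Pas1 probe reaches 1.42 to 1.60 in shKdm5c#1.

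Counted by the fit over all genes, shKdm5c#1 against control-sh called Rpl39l and D1Pas1 higher and Cyct and Slc25a31 lower, where 9.01 percent of all 18322 genes were called higher and 9.66 percent lower at an adjusted p under 0.05. In shKdm5c#2, D1Pas1 was called higher and Rpl39l, Cyct, Slc25a31, Pdha2 and Taf7l lower, with 9.96 percent of all genes called higher and 12.3 percent lower. The median difference of the 8 genes was -0.01 in shKdm5c#1 and -0.26 in shKdm5c#2, and that of all genes was 0.00 in both. Between the hairpin lines, Rpl39l, Slc25a31, Pdha2, Taf7l and D1Pas1 were called higher in shKdm5c#1 than in shKdm5c#2, with 10.1 percent of all genes called higher and 8.51 percent lower. The genes were chosen on these contrasts, so nothing is read from the counts. Median centring in place of loess moved the share of higher calls among all calls to 59.4 percent in shKdm5c#1 against control-sh, where it was 48.3 percent, and to 71.5 percent in shKdm5c#1 against shKdm5c#2, where it was 54.2 percent.

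The settings tried refit the same arrays or some of them, and all but the mean of probes rest on 1 probe per gene. The genes were chosen on these ratios, so a held call is a description and no further test. In shKdm5c#2 the calls of Rpl39l and Taf7l held in 22 of 22. For Taf7l the mean of probes was -0.16, and its dimmer probe alone gave -0.03. The calls of Cyct, Slc25a31 and Pdha2 in this line held in 21 of 22. They were lost in the Cy5 arrays alone, which leave 2 cultures per line. That of D1Pas1 held in 19 of 22 and was lost with median centring, with no dye term and in the Cy3 arrays alone. In shKdm5c#1 the calls of Rpl39l and Cyct held in 20 of 22 and that of D1Pas1 in 21, and median centring ended all 3. Between the hairpin lines, the calls of Rpl39l and Taf7l held in 22 of 22 and that of Slc25a31 in 20, with losses under median centring and in the Cy5 arrays alone. That of Pdha2 held in 19 and was lost with median centring, with no dye term and in the Cy5 arrays alone, where the difference was 0.07, against 0.33 in the Cy3 arrays alone. That of D1Pas1 held in 18 and was lost under the same 3 settings and in the Cy3 arrays alone. The call of Slc25a31 in shKdm5c#1 held in 13 of 22. Median centring, no dye term and either dye alone ended it, and leaving out culture A or D of shKdm5c#1, or culture A, C or D of control-sh, ended it (-0.16 to -0.11 over the fits without 1 culture).

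**Figure D4:**
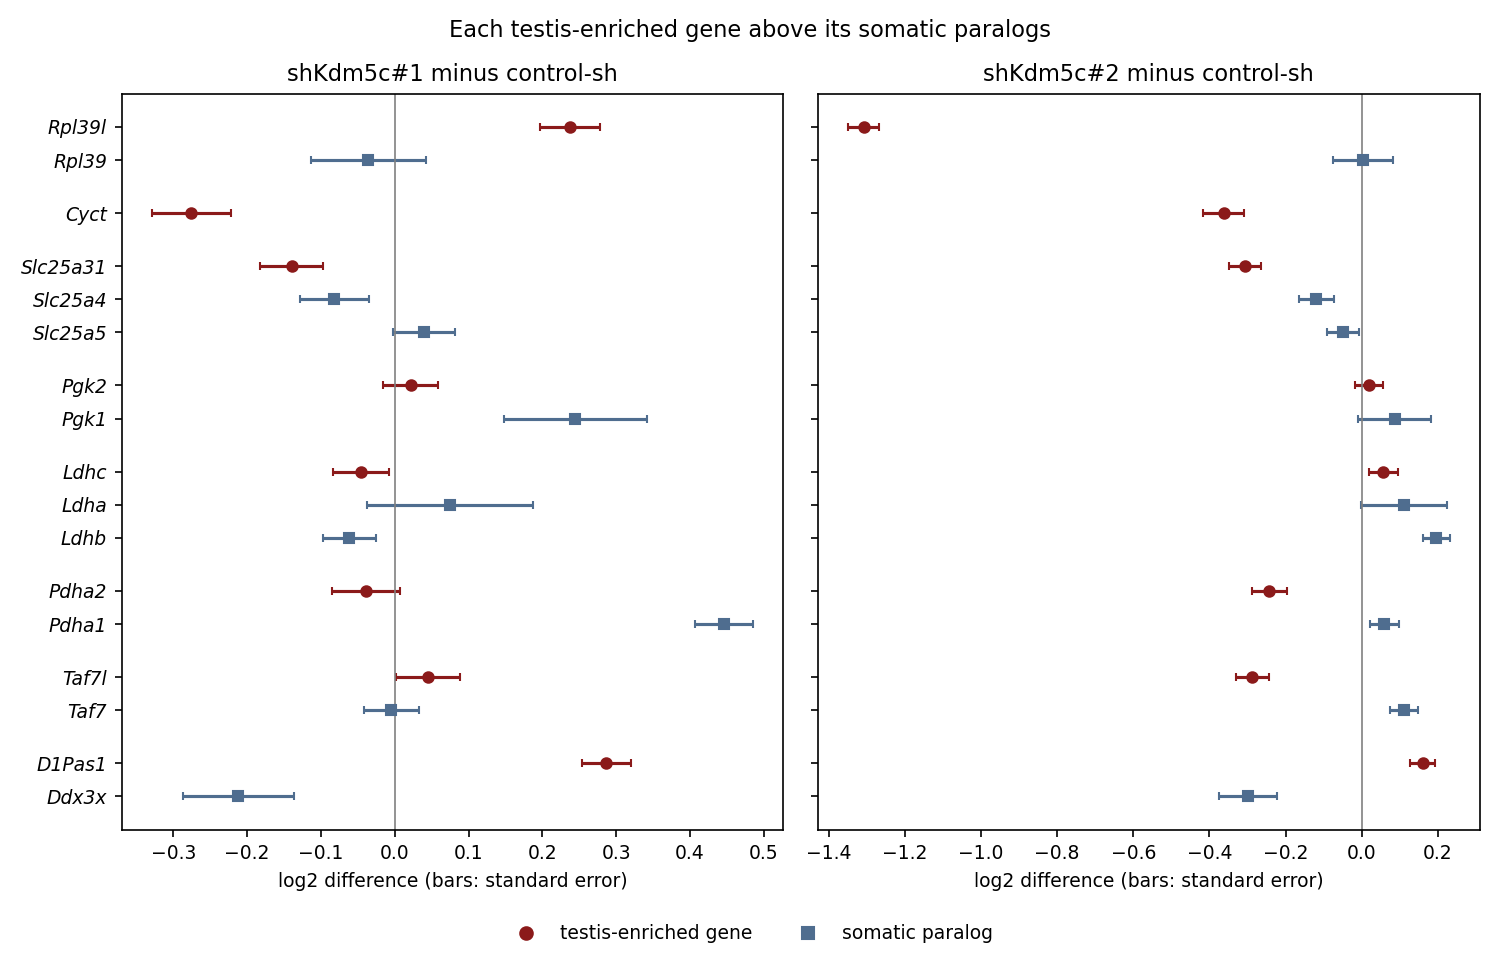
Log2 differences (x axis) from control-sh of shKdm5c#1 on the left and shKdm5c#2 on the right, with standard errors, for each testis-enriched gene (circles) above the somatic paralogs on the array (squares). The 2 panels have different scales; Rpl39l lies at -1.31 in shKdm5c#2 while Rpl39 lies at 0.00, and Pdha1 lies at 0.45 in shKdm5c#1 while Pdha2 lies at -0.04.

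The control hairpin was also set against the untreated reference, which asks how the genes differ in a vector-bearing line without a Kdm5c hairpin. The reference was taken as 1 preparation, so this leaves out the spread between IB10 cultures. Rpl39l stood at 0.17 ± 0.03 in control-sh, Ldhc at -0.36 ± 0.03 and D1Pas1 at -0.15 ± 0.02, and these 3 were called, with 12.6 percent of all genes called higher and 13.7 percent lower. The other 5 lay between -0.04 and 0.09. The call of Ldhc held in 22 of 22 settings and that of Rpl39l in 20, with losses under median centring and in the Cy5 arrays alone. That of D1Pas1 held in 19 and was lost with median centring, with no dye term and in the Cy3 arrays alone, where it stood at -0.03, against -0.28 in the Cy5 arrays alone, and the mean of its probes stood at -0.07. In shKdm5c#2, Rpl39l lay at 45.3 percent of the IB10 level, and in shKdm5c#1 at 132 percent. Among the paralogs, Slc25a4 and the brightest probe of Ddx3x were higher in control-sh than in IB10 (0.12 and 0.16, adjusted p = 0.0135 and 0.0326). The Ddx3x probes MMAB014501 and MMAB029507 lay below IB10 in all 4 control cultures (-0.16 and -0.24), so the direction of Ddx3x rests on the probe. The paralogs Pgk1, Ldhb and Pdha1 were lower (-0.28, -0.19 and -0.17, adjusted p = 0.00608, 2.39e-05 and 0.000209). Leaving out culture D of control-sh ended the call of Slc25a4 (0.09, adjusted p = 0.123), leaving out culture B that of Pgk1 (-0.19, adjusted p = 0.0649), and leaving out any 1 control culture that of Ddx3x (0.13 to 0.18). Median centring ended all 5 of these calls (adjusted p = 0.324 to 0.813), and Pgk1 stood at 0.19 in the Cy5 arrays alone and at -0.75 in the Cy3 arrays alone.

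For each of the 6 genes above background on all arrays, the genes with the most similar ratios were sought among 15478 genes by Pearson's r over the 12 arrays, with the dye term taken out. The arrays form 3 lines and share a reference, so r mostly follows the 3 line means and is given as a description. Rpl39l was most like Perp (r = 0.996), Wdr35 (0.995) and Syap1 (0.994), which stood at 0.07, 0.06 and 0.12 in shKdm5c#1 against control-sh and at -0.55, -0.40 and -0.72 in shKdm5c#2. Perp encodes a membrane protein of desmosomes and Wdr35 a part of the transport machinery of cilia. All 3 were closer to control-sh than Rpl39l in both lines. Taf7l was most like Accsl, Galnt6 and Lrig3 (r = 0.982, 0.969 and 0.968), and Pdha2 like Magi3, Sri and Cltb (0.966, 0.960 and 0.956). Slc25a31 was most like Tgfbi, a secreted matrix protein, and Snx18 and Ddah1 (0.979, 0.965 and 0.962). D1Pas1 was most like Rnf19a, Krt6a and Abcc5 (0.988, 0.979 and 0.978), and Pgk2 like Hspb7, March1 and Tmprss3 (0.908, 0.874 and 0.867).

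A wider list of 40 other testis-enriched relatives of widely expressed genes had 34 on the array. In shKdm5c#1 4 were called higher and 8 lower, and in shKdm5c#2 4 higher and 7 lower, with a median of -0.03 in each against 0.00 for all genes. Of all genes, 9.01 percent were called higher and 9.66 percent lower in shKdm5c#1, and 9.96 and 12.3 percent in shKdm5c#2. Of the 34, 26 passed the background on all arrays. This list and the repressor and marker lists below were chosen with earlier results of these data known. Their adjusted p-values are thus a description. Usp26, an X-linked ubiquitin protease of testis, fell by 0.70 in shKdm5c#1 and rose by 0.36 in shKdm5c#2 (adjusted p = 2.70e-07 and 0.000163), and the 2 lines differed by -1.07 (adjusted p = 1.92e-09). Ott fell by 0.37 and 0.81 (adjusted p = 6.23e-05 and 5.55e-09). Pabpc2, a poly(A)-binding protein of germ cells, rose by 0.36 in shKdm5c#1 (adjusted p = 1.49e-06), or by 0.15 as the mean of its probes. In shKdm5c#2 Pabpc2 gave -0.07 (adjusted p = 0.205), or -0.09 as the mean of its probes (adjusted p = 0.00851). Hspa2, the heat shock protein of meiosis, fell by 0.31 and 0.30 in the 2 lines (adjusted p = 6.99e-05 and 5.15e-05). Cox8c, a testis form of a cytochrome oxidase subunit, fell by 0.22 and 0.44 (adjusted p = 0.00173 and 1.42e-06). Gtf2a1l, the germ cell form of a TFIIA subunit, fell by 0.29 and 0.35 (adjusted p = 1.37e-05 and 9.74e-07). With an offset of 16 the falls in shKdm5c#2 were -0.76 for Cox8c and -0.54 for Gtf2a1l. With median centring the list had 3 genes called lower in shKdm5c#1 and 1 higher and 4 lower in shKdm5c#2, and the differences of Pabpc2 (0.41, adjusted p = 0.129), Hspa2 (-0.28, adjusted p = 0.119) and Cox8c (-0.31, adjusted p = 0.0667) in shKdm5c#1 and of Hspa2 in shKdm5c#2 (-0.28, adjusted p = 0.0806) were not called. In the Cy5 arrays alone those of Hspa2 in both lines and of Cox8c in shKdm5c#1 were not called either (adjusted p = 0.0526, 0.0671 and 0.103).

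Of 19 genes that repress germline genes in embryonic stem cells, 6 were called higher in shKdm5c#1, and 6 higher and 2 lower in shKdm5c#2, with a median of 0.07 in each, where 9.01 and 9.96 percent of all genes were called higher and 9.66 and 12.3 percent lower. With median centring all 6 calls in shKdm5c#1 were lost, and in shKdm5c#2 2 genes were called higher and both lower calls were lost. Dnmt3b, a DNA methyltransferase that sets new methylation, rose by 0.29 in shKdm5c#1 and by 1.02 in shKdm5c#2 (adjusted p = 1.03e-05 and 2.18e-12). Hells, a chromatin remodeller needed for DNA methylation, rose by 0.42 and 0.57 (adjusted p = 4.72e-05 and 1.20e-06). Median centring lost the calls of both in shKdm5c#1 (0.35 and 0.47, adjusted p = 0.232 and 0.0620). Methylation was not measured.

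The identity of the cells was checked by marker genes. All 8 embryonic stem cell markers passed the background on all arrays, but so did 9 of 10 spermatid markers. The median log2 intensity, averaged over both dyes and all arrays, was 12.7 for the embryonic stem cell markers. It was 7.64 for the spermatid and 7.97 for the fibroblast markers. Pou5f1 and Sox2, core pluripotency factors, gave -0.02 and 0.01 in shKdm5c#1 and -0.05 and 0.03 in shKdm5c#2, with no call, and the other markers did not move one way. In shKdm5c#1 2 of 8 were called higher, Dppa5a (0.27, adjusted p = 0.0440) and Fgf4 (0.23, adjusted p = 0.000174), and Nanog fell by 0.22 (adjusted p = 0.0247). In shKdm5c#2 3 of 8 fell, Dppa5a by 0.51, Nanog by 0.38 and Esrrb by 0.29 (adjusted p = 0.000460, 0.000331 and 0.00489). These calls were lost with median centring. The 10 spermatid markers had adjusted p-values of 0.183 to 0.998 in the comparisons of hairpin lines with control-sh, so none passed the test there. Of 8 fibroblast markers, 5 were called lower and 1 higher in shKdm5c#1, and 4 lower and 1 higher in shKdm5c#2, against the same shares of all genes as above. With median centring 2 and 3 were called lower. The mean log2 ratio of this list over IB10 ran from -0.21 to -0.12 in the cultures of shKdm5c#1, from -0.28 to -0.22 in shKdm5c#2 and from 0.04 to 0.10 in control-sh. Of these markers 6 of 8 passed the background on all arrays, none read 0, and Col1a1, a fibrillar collagen, fell by 0.75 and 1.46 (adjusted p = 1.88e-10 and 5.03e-14), or by 0.28 and 0.57 as the mean of its probes. Fn1 rose by 0.23 and 0.41 (adjusted p = 0.00799 and 5.30e-05), and Pdgfrb and Prrx1 were called in neither hairpin line. The part of these markers in the values of the 8 genes was not tested.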

How the data were processed

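Of the 12 arrays, 4 per line, each carried a culture and IB10 reference RNA in opposite dyes. Per the file headers, the deposited raw files hold the intensity of each spot and its local background in both dyes, with no correction, and the derived files hold intensity per dye normalized by the authors by a method that is not stated in the labels. The deposited value table holds log2 of the authors' Cy5 over Cy3 signal (column medians -0.0026 to 0.016), and its scale and direction were checked against the derived files. Here the mean signals were corrected by normexp with an offset of 50 and normalized by loess within each array in limma 3.58.1 (R 4.3.3), with control spots at weight 0. Ratios were turned to sample over reference, and the brightest probe stood for each of 18322 genes, with 34186 probes named by the platform annotation and 6988 unnamed. The linear model held the 3 lines and the dye over 12 arrays (8 residual degrees of freedom), and limma's p-values were adjusted by Benjamini-Hochberg over all genes, with a threshold of 0.05. The fit was tested on simulated data.

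The members and gene lists were chosen with earlier results of these data known. Named genes are the members, their somatic paralogs, Kdm5c, the 3 genes of highest correlation with each member above background on all arrays, the 4 most changed called genes of the other testis-enriched relatives and the 2 most changed called germline repressors per hairpin, and markers. The alternatives were background correction, offset, normalization, the authors' ratios, dim probes, the mean of probes, the dye term, each dye alone, the culture letter as a block and leaving out each culture. Promoter windows and positions come from RefSeq (GRCm38.p6). Figures were drawn with matplotlib 3.10.9.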

Additional observations from a re-analysis of the deposited data

Results flagged for a closer look

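Within a line of 4 cultures, 5 of 51 sets of values, with the dye term taken out, held a culture far from the other 3, where chance alone flags about 1 set in 20. These were Cyct at -0.074 in culture C of shKdm5c#1 and at -0.11 in culture D of shKdm5c#2, Ldhc at -0.37 in culture D of shKdm5c#1, Rpl39 at -0.32 in culture B of shKdm5c#1, and Slc25a5 at -0.085 in culture B of shKdm5c#2. Both Cyct cultures lay closer to IB10 than the others of their line.

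Of 9 somatic paralogs on the array, 3 differed between the hairpin lines by the test of the difference itself. Of all genes, 10.1 percent were called higher in shKdm5c#1 than in shKdm5c#2 and 8.51 percent lower. Pdha1 was higher in shKdm5c#1 than in shKdm5c#2 by 0.39 log2 (limma adjusted p = 2.68e-06), with all 4 cultures above. Ldhb was lower by 0.26 (-0.26, adjusted p = 6.27e-05), again with all 4 cultures apart. Taf7 was lower by 0.12 (-0.12, adjusted p = 0.0410), with cultures that overlapped as measured and lay apart once the dye term was taken out. With median centring the adjusted p-values of Pdha1 and Ldhb were 0.234 and 0.649, and Taf7 was not called either. The Taf7 call was lost under most other settings. Among these were the authors' ratios (-0.11, adjusted p = 0.0569), the mean of probes (-0.07, adjusted p = 0.110) and either dye alone. Its dimmer probes MMAB039732 and MMAB033342 gave -0.10 and -0.01 (limma p adjusted over all probes = 0.152 and 0.954).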

How the results depend on the processing

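Of the alternative values of the 8 genes, 998 stayed within 1 residual SD of the reported value and 58 moved further. The offset of 16 put Slc25a31, Pdha2 and Taf7l at -0.44, -0.38 and -0.43 in shKdm5c#2 against control-sh. The mean of probes put Rpl39l and Taf7l at -0.89 and -0.16 there, and D1Pas1 at 0.88 in shKdm5c#1 against control-sh and at 0.81 over IB10. Genes called in shKdm5c#1 against control-sh, shKdm5c#2 against control-sh, shKdm5c#1 against shKdm5c#2 and control-sh against IB10 numbered 3419, 4074, 3404 and 4816. They numbered 419, 795, 474 and 988 with median centring, 1944, 2607, 2007 and 3164 with no dye term, 812, 1298, 741 and 2741 in the Cy5 arrays alone, and 1940 and 2256 in the Cy3 arrays alone for shKdm5c#1 against control-sh and against shKdm5c#2, where each line keeps 2 cultures. Leaving out 1 culture gave 2791 to 4173, 3410 to 4317, 2759 to 4012 and 3485 to 5504. Median centring put the share of higher calls in control-sh against IB10 at 35.0 percent, where it was 47.9 percent. With the culture letter as a replicate block the counts were 3837, 4520, 3753 and 5192. Deviations of cultures with the same letter correlated at 0.008 to 0.28 for B and D and at -0.28 to -0.002 for A and C. Each letter has only 1 dye and the dye term was taken out, so these values cannot tell whether cultures of a letter were handled together. In control-sh against IB10, 4 paralog values that passed the test in at least 1 of the fits turned sign: Rpl39 was -0.31 in the Cy3 arrays alone, Pgk1 0.19 and Ldha 1.04 in the Cy5 arrays alone, and Ddx3x -0.040 as the mean of probes. The cause was not tested. Of the other paralog and Kdm5c values, 804 kept their side of the threshold, 58 lost the call and 14 gained it. Of the 804, 40 that were called in neither fit changed sign, among them Slc25a5 (-0.05) and Taf7 (0.05) in control-sh against IB10 in the Cy3 arrays alone, and Ddx3x in shKdm5c#1 against control-sh as the mean of probes (0.02). Signals near background limit Pgk2, Ldhc, Pdha2, Taf7l and Slc25a31.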
